A study of Mus musculus with 16 samples.

Results

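The genes described here are 36 genes of the unfolded protein response and of the ATF4 response to amino acid shortage. They were taken from the deposited count and FPKM tables by gene name, and every one of the 36 names was found among 54532 genes. Of these, 16 are endoplasmic reticulum (ER) chaperones and folding factors, 5 are sensors and transcription factors, 5 are stress effectors downstream of ATF4, and 10 are enzymes of amino acid, one-carbon and transfer RNA metabolism, called the amino acid arm below. The rule that finds them uses gene names and no measured value, but the genes were chosen with earlier results of these data known. In all, 35 passed the filter on low counts and were tested with 15469 genes. Cth, with 42 counts over all libraries, did not pass.

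The libraries are polyA RNA from cultured macrophages of wild-type C57BL/6J mice aged 2 to 3 months. Tibial bone marrow was cultured in 15% serum with CSF-1, the growth factor of macrophages, at 12 ng/ml for 24 h and then at 120 ng/ml for 48 h. The adherent cells were passaged once, onto plates pre-coated with fibronectin at 10 µg/ml or onto uncoated culture plates, and were then given an IgG antibody or a neutralizing antibody to ITGAV, the αV subunit of several integrins, each at 10 µg/ml for 24 h. Fibronectin is a matrix protein that αV and other integrins bind. The 4 groups of 4 libraries are therefore uncoated with IgG, uncoated with anti-ITGAV, fibronectin with IgG and fibronectin with anti-ITGAV, and all of them carry an antibody, the serum and CSF-1. The study asks what αV integrin does in macrophages. Nothing in the labels says that the 4 libraries of a group came from separate mice or cultures, so the p-values measure the spread between these libraries, which may be technical.

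Secreted and membrane proteins fold in the ER. When unfolded protein builds up there, the sensors PERK, IRE1 (encoded by Ern1) and ATF6 signal to the nucleus: IRE1 splices Xbp1 mRNA, ATF6 is cleaved into a transcription factor, and both raise chaperone genes, while PERK phosphorylates the translation factor eIF2α. Phosphorylated eIF2α lowers protein synthesis in general and raises the translation of ATF4, which induces genes of amino acid uptake, synthesis and transfer RNA charging. Other kinases that sense amino acid shortage, viral RNA or haem shortage act on eIF2α too, so the ATF4 arm can be engaged without ER stress. Splicing, cleavage, phosphorylation and translation are not seen in counts per gene.

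Promoter sequence is shown first because the factors above are known by the motifs they bind in front of these genes. RefSeq promoter windows, 250 bases before the transcription start on GRCm38.p6, were found for 31 of the 36 genes (32 windows, since Psat1 has 2). Manf, Hyou1, Atf6, Wars and Cth had no entry. The ER stress element bound by ATF6 and XBP1, searched on both strands as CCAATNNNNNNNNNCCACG, was in 7 of the 32 windows (Calr, Canx, Creld2, Dnajc3, Hsp90b1, Hspa5 and Pdia6), all of them chaperone genes, and in 0.113% of all 32851 windows (37). Its type II form, ATTGG and CCACG with 1 base of any kind between them, was in 1 window, that of Herpud1, and in 0.0304% of all windows (10). The 2 forms share the letters CCACG and were counted apart. The core of the UPR element, TGACGTGG, was in 0 of the 32 windows and in 0.563% of all (185). The matches with 20 bases on either side are given here for 5 chaperone genes and Herpud1, with the motif in capitals, on the strand of the gene from 5′ to 3′. A motif on the other strand reads as its reverse complement, starting CGTGG.
Hspa5, chr2:34772005-34772063, plus strand: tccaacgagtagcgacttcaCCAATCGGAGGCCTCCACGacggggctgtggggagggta
Calr, chr8:84847055-84847113, minus strand: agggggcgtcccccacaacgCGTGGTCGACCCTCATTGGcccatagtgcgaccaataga
Hsp90b1, chr10:86705513-86705571, minus strand: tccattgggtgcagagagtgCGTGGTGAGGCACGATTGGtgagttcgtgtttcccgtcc
Creld2, chr15:88819500-88819558, plus strand: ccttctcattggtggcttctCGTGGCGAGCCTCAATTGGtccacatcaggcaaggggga
Pdia6, chr12:17266471-17266529, plus strand: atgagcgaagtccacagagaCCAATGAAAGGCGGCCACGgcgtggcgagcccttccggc
Herpud1, chr8:94386357-94386407, plus strand: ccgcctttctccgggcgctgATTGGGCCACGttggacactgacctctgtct

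The core of the C/EBP-ATF response element, to which ATF4 binds with a C/EBP partner, was searched as TGATGNAA on both strands. It was in 7 of the 32 windows (Aars, Asns, Chac1, Gars, Herpud1, Nupr1 and Pck2) and in 3.45% of all windows (1134). Herpud1 held both kinds of motif. The cores of 5 genes are shown in capitals with up to 20 flanking bases, because Gars rose and Pck2 fell in the coating comparison below. Asns, Chac1 and Nupr1, which passed no test there on the counts as deposited, are shown beside them.
Asns, chr6:7693210-7693252, minus strand: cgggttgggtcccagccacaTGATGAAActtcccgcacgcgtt
Gars, chr6:55037951-55037998, plus strand: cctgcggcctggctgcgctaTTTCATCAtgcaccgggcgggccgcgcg
Pck2, chr14:55540143-55540190, plus strand: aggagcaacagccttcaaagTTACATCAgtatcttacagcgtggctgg
Chac1, chr2:119351029-119351076, plus strand: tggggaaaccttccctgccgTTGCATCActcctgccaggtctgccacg
Nupr1, chr7:126625553-126625600, minus strand: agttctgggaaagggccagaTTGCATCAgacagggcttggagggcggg
The stretches of Hspa5, Asns and Nupr1 lie before the RefSeq start but inside the deposited gene records, which begin further upstream, and the others lie in front of their records. A match is a run of letters, not a measured site, and no binding data were used. Psat1, Mthfd2, Phgdh and Shmt2 had a window with no match to these letters.

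Total counts per library, rounded to 6 digits, ran from 27995000 to 43413600, and where a gene has no count, up to 3 counts are allowed by counting error alone, which is 0.0691 to 0.107 CPM (counts scaled to a common library total). The 10 macrophage markers, among them Lyz2 and Cd68, summed to 28193 to 35992 CPM in the 16 libraries, with none at 0. Fibronectin with anti-ITGAV library 3 stood apart: 3.67% of its counts lay in mitochondrial genes against 1.3% to 1.6% in the others, its counts fell with GC content more steeply than in any other library (Spearman's rho over genes -0.695, others -0.293 to 0.54), and its mean correlation with the other libraries was 0.965 against 0.976 to 0.983. Results that rest on it are given with and without it. The coating comparisons are under IgG, under anti-ITGAV, and over the mean of both antibodies, which uses all 16 libraries.

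The chaperones were among the abundant mRNAs of these cells. On the deposited FPKM scale, which divides by gene length and so allows genes to be set side by side, Calr, the calcium-binding lectin chaperone calreticulin, was highest at a mean of 579.8 FPKM over the 16 libraries (range 479 to 774), at the 99.6th percentile of tested protein-coding genes. Pdia3, the disulfide isomerase that works with it, followed at 291 FPKM and Hspa5, the HSP70 chaperone BiP that also holds the sensors inactive, at 284 FPKM. Their ranges of 250.5 to 431 and 239 to 355 FPKM overlapped, so these neighbours were not separated. Hsp90b1 (GRP94) averaged 167 FPKM, Canx (calnexin) 139.9, Pdia6 130.4, Sdf2l1 119 and Pdia4 92.9, again with overlapping ranges between neighbours. Edem1, a mannose-binding factor that sends misfolded glycoproteins to degradation, had 58.1 FPKM, and the BiP co-chaperone Dnajb11 49.5. Creld2 had 31.9 FPKM, Hyou1 31.5, Dnajc3 29.6, Manf 27.7 and Herpud1 18.7, and Dnajb9, a BiP co-chaperone of the DnaJ family, was lowest of the arm at 14.4 (10.4 to 27.4).

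The transcription factors Xbp1 (50.3 FPKM) and Atf4 (45.2) lay above Atf6 (17), Ern1 (9.78) and Ddit3 (7.82), which encodes the stress factor CHOP. The effectors were lower. Sesn2, a leucine-sensing brake on mTORC1, had 14.5 FPKM, and Ppp1r15a, the phosphatase subunit GADD34 that reverses eIF2α phosphorylation, had 5.34. Nupr1 had 2.06 FPKM, Trib3, a pseudokinase that feeds back on ATF4, 1.21, and Chac1, a glutathione-degrading enzyme, 0.233 with 211 counts in all. In the amino acid arm Gars, Wars and Aars, which charge glycine, tryptophan and alanine transfer RNA, had 31.2, 22.2 and 16.6 FPKM. Psat1, Phgdh and Shmt2 of serine and glycine synthesis had 20.4, 2.57 and 15.8 FPKM. Mthfd2, the mitochondrial folate enzyme, had 7.39, Pck2, the mitochondrial PEP carboxykinase, 7.04, and Asns, asparagine synthetase, 5.33. Cth, the last enzyme of the transsulfuration route to cysteine, was lowest at 0.0256 FPKM: its CPM was 0 in 9 of the 16 libraries, and the others had 0.0538 to 0.335 CPM, which is 2 to 11 counts. Ddit3 has a second record in the tables with 0 counts.

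**Figure D1:**
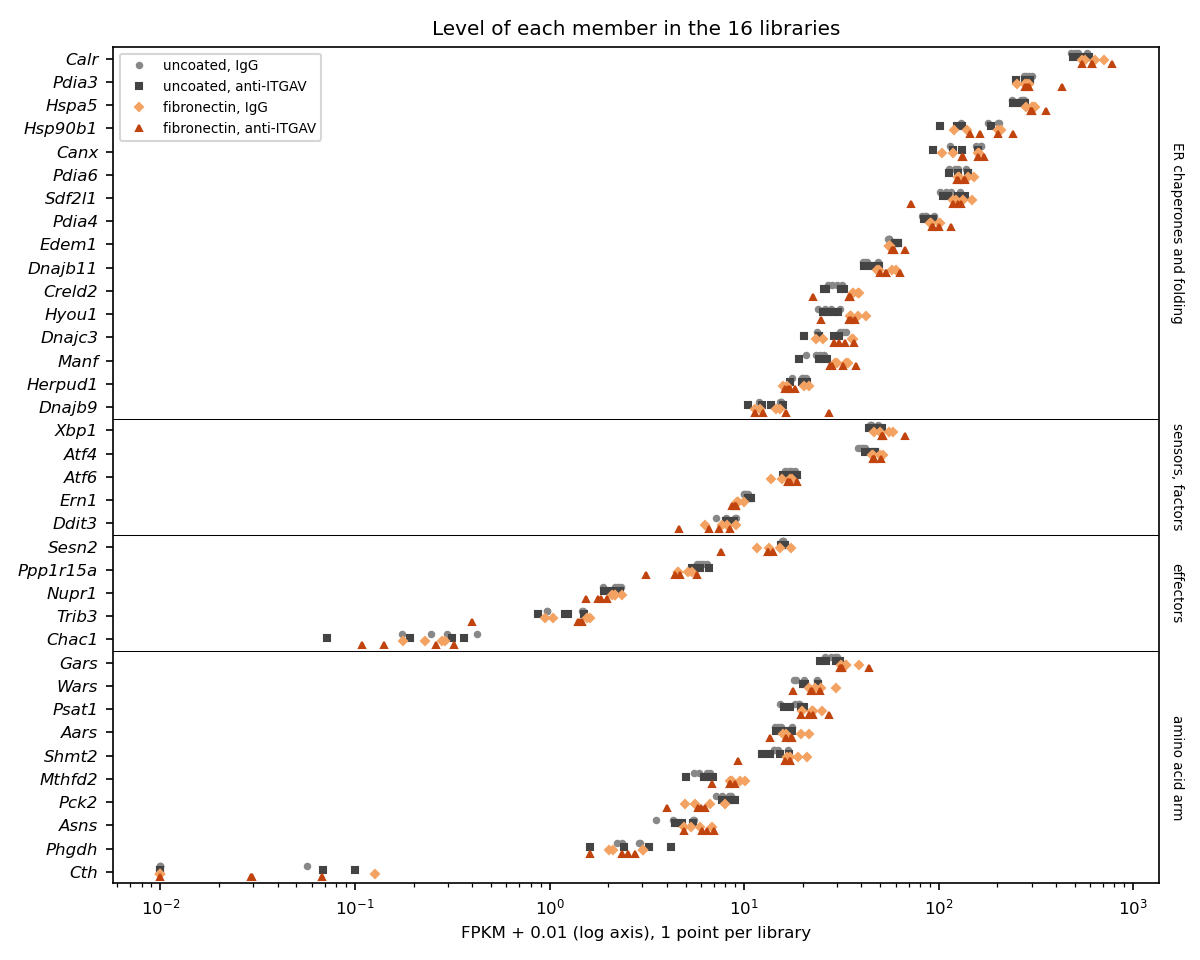
Level of the 36 genes in the 16 libraries, as deposited FPKM plus 0.01 on a log axis, 1 point per library, with colour and shape for the 4 groups and lines between the arms. Chaperones lie highest, from Dnajb9 at a mean of 14.4 FPKM to Calr at 579.8, and Cth is at or near 0.

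On fibronectin, 4 chaperones rose and 3 genes of the amino acid arm rose, while Ern1, Ppp1r15a and Pck2 fell. These are the calls of edgeR's quasi-likelihood test over the mean of both antibodies at an adjusted p under 0.05: 10 of the 35 tested genes, 7 higher and 3 lower, or 28.6%. The background in that comparison was 11.8% of all genes tested, 6.58% higher and 5.26% lower. The called changes ran from 0.719-fold for Pck2 to 1.42-fold for Mthfd2. Of the 35 genes 24 lay above 0 and the median log2 change was 0.13, against a median of 0.004 and 50.6% above 0 over all genes tested. Members of a pathway are not independent of each other, and no test was made on the set. In RNA from a whole culture, fewer cells of a type and less RNA per cell cannot be told apart.

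Among the chaperones Hspa5, Dnajb11, Manf and Hyou1 rose, and each kept its call under all 27 other settings of this comparison. Values below are CPM scaled by TMM, given from the lowest to the highest library of each group. Where groups are said to overlap or not, the share of all genes tested that do so was not counted. Hspa5 (ENSMUSG00000026864, chr2:34771970-34777547) stood at 1021, 1143, 1159.8 and 1164 on uncoated plates with IgG, at 1040.1, 1057, 1138 and 1195 there with anti-ITGAV, at 1205, 1294, 1319 and 1361 on fibronectin with IgG, and at 1276, 1288, 1299 and 1506 on fibronectin with anti-ITGAV. Every fibronectin library was above every uncoated library. Coating changed it by a log2 of 0.24 ± 0.06 (SE, 1.18-fold, edgeR adjusted p = 0.0093), and the standing-apart library gave the 1506; without it the change was 0.21 (adjusted p = 0.00441).

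Manf (ENSMUSG00000032575, chr9:106838312-106891979), a small secreted ER protein that binds BiP, had 74.3, 83.4, 87.3 and 92.5 CPM on uncoated plates with IgG and 68.4, 86.1, 93.6 and 95.7 with anti-ITGAV. On fibronectin it had 106, 109, 119 and 122 CPM with IgG and 97.6, 102, 115 and 133 with anti-ITGAV. Coated and uncoated libraries did not overlap. Its log2 change was 0.41 ± 0.08 (1.33-fold, adjusted p = 0.00332). The Manf record overlaps Rbm15b on the same strand and Dcaf1 on the other, with 18166 and 9843 counts of their own beside its 54989, and since the strand setting of the counting is not given, reads of these genes cannot be told apart where they overlap.

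Hyou1 (ENSMUSG00000032115, chr9:44379490-44392369), a large HSP70-like protein that exchanges nucleotide on BiP, had 176, 191, 203 and 228 CPM on uncoated plates with IgG, 185, 195, 214 and 225 with anti-ITGAV, 259.8, 262, 284 and 309 on fibronectin with IgG, and 179, 258, 258 and 272 with anti-ITGAV. The 179 belongs to the library that stood apart, and it was the only coated library within the uncoated range. On the log2 scale Hyou1 changed by 0.36 ± 0.09 (1.28-fold, adjusted p = 0.00981) and without that library 0.42 (adjusted p = 0.000133). Dnajb11 (ENSMUSG00000004460, chr16:22857845-22879634), which delivers clients to BiP, had 133, 137, 139 and 160.3 CPM on uncoated plates with IgG, 135, 146, 157 and 164 with anti-ITGAV, 160.1, 163, 189.5 and 197 on fibronectin with IgG, and 165, 175, 175 and 206 with anti-ITGAV. The groups touched at 160 to 164 CPM. Dnajb11 changed by a log2 of 0.29 ± 0.07 (1.22-fold, adjusted p = 0.011).

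The other 12 chaperones did not pass the test. Creld2 (log2 change 0.25), Calr (0.23), Hsp90b1 (0.19), Dnajc3 (0.17), Pdia4 (0.15), Dnajb9 (0.13), Pdia3 (0.08), Pdia6 (0.06), Sdf2l1 (0.06) and Canx (0.06) had values above 0, and Edem1 (-0.01) and Herpud1 (-0.14) below. With the library that stood apart left out, Dnajb9 and Pdia3 turned to -0.03 and -0.01, Sdf2l1 was at 0.14 and Canx at 0.02, 12 of the 16 chaperones lay above 0, and Creld2 passed the test (0.32, edgeR adjusted p = 0.0016). For Edem1 the 95% interval of the log2 change, -0.10 to 0.09, was among the narrowest here. For Hsp90b1 it ran from -0.13 to 0.51. Calr, the most abundant, had 1391, 1452, 1509 and 1706 CPM on uncoated plates with IgG, 1427, 1539, 1686 and 1746 with anti-ITGAV, 1613, 1678, 1869 and 2056 on fibronectin with IgG, and 1614, 1783, 1796 and 2234 with anti-ITGAV. Coated and uncoated libraries overlapped, and the adjusted p was 0.0618 by edgeR, while DESeq2 called the gene. All 7 genes with an ER stress element in the window had values above 0. Of these Hspa5 passed the test and the other 6 did not, beside 11.8% of all genes called. Without the library that stood apart Creld2 passed too, beside 15.7% of all genes. With the GC offset described below Hspa5, Calr and Creld2 passed, beside 21.3%, and Canx lay below 0 (-0.02). Of the 4 chaperones that rose 2, Manf and Hyou1, had no window in the table, and Dnajb11 had a window with no match. Pdia4, Dnajb9, Pdia3 and Sdf2l1, also above 0, had windows with no match, as had Edem1 below 0. Herpud1, below 0, held the type II form. Whether genes with and without the element differ was not tested.

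**Figure D2:**
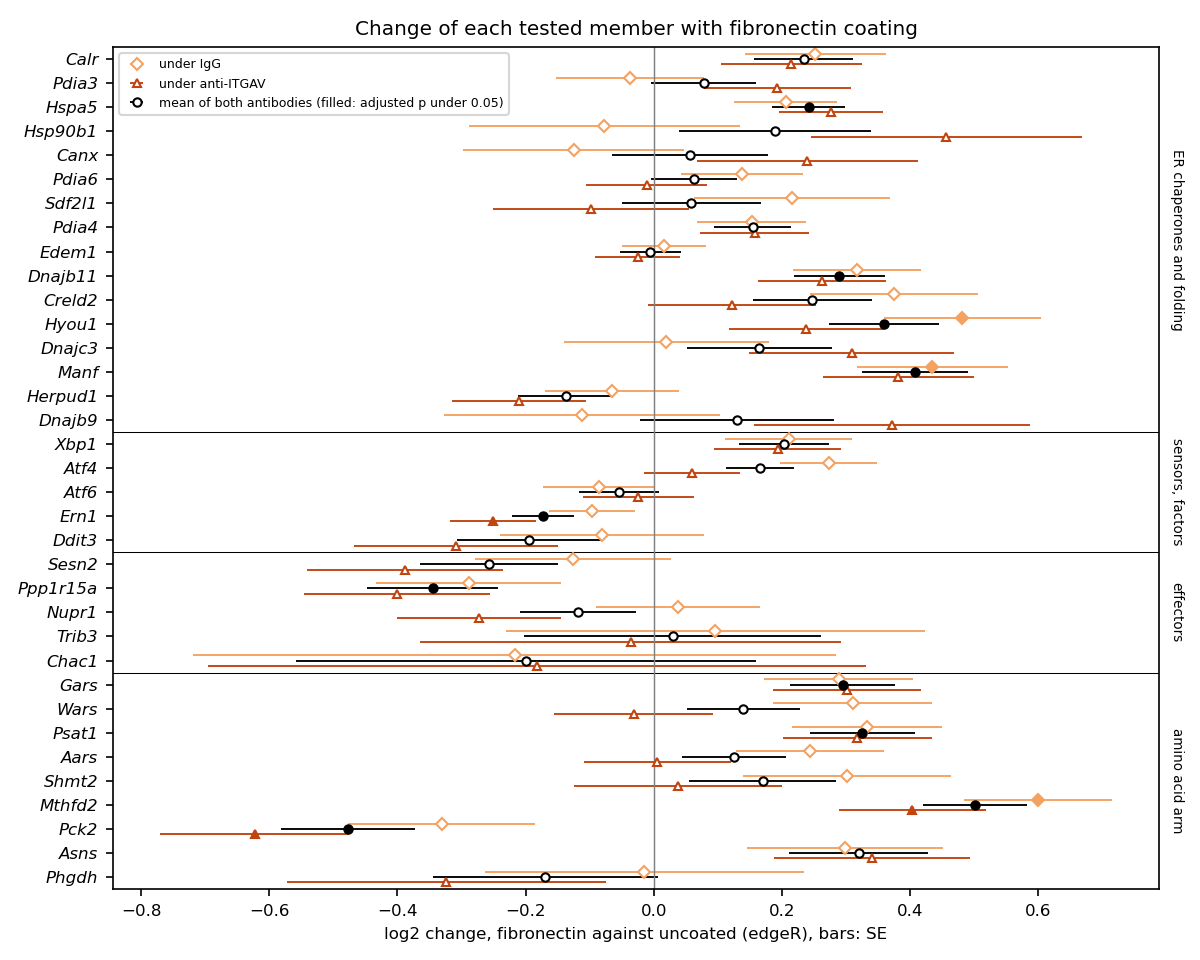
Log2 change on fibronectin against uncoated plates for the 35 tested genes (edgeR), under IgG (diamonds), under anti-ITGAV (triangles) and over both antibodies (circles), with bars for the SE and filled symbols for an adjusted p under 0.05. Filled circles lie to the right of 0 for 4 chaperones, Gars, Psat1 and Mthfd2, and to the left for Ern1, Ppp1r15a and Pck2.

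The sensor Ern1 (ENSMUSG00000020715, chr11:106394650-106487852) fell, and its spread between libraries was the smallest of the genes described here. It had 81.8, 82.4, 85.3 and 85.8 CPM on uncoated plates with IgG, 85.7, 87, 89.2 and 90.2 with anti-ITGAV, 75.7, 77.7, 77.8 and 82.3 on fibronectin with IgG, and 71.2, 74.1, 75.2 and 75.4 with anti-ITGAV. Only the 82.3 reached into the uncoated range. The log2 change was -0.17 ± 0.05 (0.887-fold, adjusted p = 0.0233), and the call was lost without uncoated IgG library 1 (adjusted p = 0.0601) and without uncoated anti-ITGAV library 3 (0.0572).

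Of the transcription factors none passed. Xbp1 had 144, 147, 147 and 161 CPM on uncoated plates with IgG, 144, 156, 164 and 171 with anti-ITGAV, 155, 166, 182 and 191 on fibronectin with IgG, and 167, 169.6, 170.4 and 218 with anti-ITGAV. Atf4 had 91.4, 94.7, 97 and 101 CPM on uncoated plates with IgG, 99.9, 106, 113 and 113 with anti-ITGAV, 109.8, 111, 119 and 124 on fibronectin with IgG, and 109, 111, 112 and 119 with anti-ITGAV. For both genes the coated libraries lay higher on average and overlapped the uncoated ones: log2 change 0.20 (adjusted p = 0.0729) for Xbp1 and 0.17 (0.0519) for Atf4. Without the library that stood apart, which held the 218 of Xbp1, Xbp1 was at 0.15 (edgeR adjusted p = 0.0646) and Atf4 at 0.15 (0.0315). On all 16 libraries DESeq2 called both genes, and the share of all genes that it called is not given here. Ddit3 had 12.3, 13.9, 15.5 and 15.9 CPM on uncoated plates with IgG, 14.1, 14.2, 14.6 and 15.3 with anti-ITGAV, 11, 13.5, 14.2 and 15.8 on fibronectin with IgG, and 7.93, 11.4, 13.1 and 14.6 with anti-ITGAV. These values overlapped too (log2 change -0.19, edgeR adjusted p = 0.32). Without the library that stood apart Ddit3 was at -0.12 (edgeR adjusted p = 0.43). Ddit3 lies within Mars on the other strand, which had 31777 counts. Atf6 was at -0.05 (adjusted p = 0.648).

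Of the 5 effectors below ATF4 none was called higher. Ppp1r15a (ENSMUSG00000040435, chr7:45522916-45526268) fell, from 16.9, 17.5, 18.1 and 19.4 CPM on uncoated plates with IgG and 16, 16.9, 17.9 and 19.6 with anti-ITGAV to 13.6, 13.7, 15.3 and 16.2 on fibronectin with IgG and 9.17, 13.3, 13.9 and 17 with anti-ITGAV. Under IgG the groups did not overlap, and under anti-ITGAV they did. Ppp1r15a changed by a log2 of -0.35 ± 0.10 (0.787-fold, adjusted p = 0.0352), a call lost when any of 7 libraries was left out: uncoated IgG 1 and 4, uncoated anti-ITGAV 1, 2 and 3, and fibronectin IgG 3 and 4, with adjusted p of up to 0.0811. Without the library that stood apart, which held the 9.17, it was -0.27 (adjusted p = 0.017). Sesn2 (-0.26), Chac1 (-0.20), Nupr1 (-0.12) and Trib3 (0.03) did not pass, and the interval of Chac1 ran from -0.96 to 0.56. Without the library that stood apart Sesn2 was at -0.17, Chac1 at -0.12, Nupr1 at -0.08 and Trib3 at 0.179 ± 0.165 (SE). A missed threshold does not show that these genes did not rise.

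In the amino acid arm Mthfd2 (ENSMUSG00000005667, chr6:83305691-83325908) had the largest rise of all 35 genes. It had 19.4, 20.8, 22.5 and 23.5 CPM on uncoated plates with IgG, 17.6, 21.7, 22.8 and 24.8 with anti-ITGAV, 30.2, 30.9, 33.7 and 35.6 on fibronectin with IgG, and 24.5, 29.6, 29.7 and 31.2 with anti-ITGAV. Of the 8 coated libraries 7 were above all uncoated ones. The log2 change was 0.50 ± 0.08 (1.42-fold, adjusted p = 0.000538). Psat1 (ENSMUSG00000024640, chr19:15904678-15947337) rose by 0.33 ± 0.08 (1.25-fold, adjusted p = 0.0142), from 65.4, 78.7, 81.9 and 83.4 CPM on uncoated plates with IgG and 68.6, 73.1, 84.8 and 88.9 with anti-ITGAV to 86.3, 96.9, 98 and 109 on fibronectin with IgG and 86.1, 92.7, 97.5 and 117 with anti-ITGAV. The groups overlapped between 86.1 and 88.9 CPM.

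Gars (ENSMUSG00000029777, chr6:55038007-55079500) had 81.7, 87.6, 92.3 and 95.5 CPM on uncoated plates with IgG, 76.9, 82.3, 94.2 and 99.3 with anti-ITGAV, 101, 106, 107 and 123 on fibronectin with IgG, and 98.4, 99.9, 99.9 and 136 with anti-ITGAV. Again the groups overlapped only at their edges, and the 136 was the library that stood apart. The log2 change was 0.30 ± 0.08 (1.23-fold, adjusted p = 0.0247), and without that library 0.23 (adjusted p = 0.0152). The call was lost without uncoated IgG library 1 (adjusted p = 0.0619) or 2 (0.0646) and without uncoated anti-ITGAV library 2 (0.0583) or 4 (0.0535).

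Pck2 (ENSMUSG00000040618, chr14:55540266-55551242) went the other way. It had 56.5, 60.9, 66.2 and 67.1 CPM on uncoated plates with IgG, 60.8, 65.4, 70.2 and 71.6 with anti-ITGAV, 39.4, 44.7, 52.6 and 62.7 on fibronectin with IgG, and 31.2, 45.8, 47.8 and 49.3 with anti-ITGAV. Of the coated libraries only the 62.7 lay within the uncoated range. The log2 change was -0.48 ± 0.10 (0.719-fold, adjusted p = 0.00514), and without the library that stood apart, which held the 31.2, it was -0.41 (adjusted p = 0.00187). So Gars and Pck2, which share the C/EBP-ATF core in their windows, moved in opposite directions.

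Asns, which shares that core and is often read as a marker of ATF4 activity, had 9.73, 11.9, 15 and 15.3 CPM on uncoated plates with IgG, 12.1, 12.8, 13.1 and 15.1 with anti-ITGAV, 13.7, 14.9, 16.5 and 18.9 on fibronectin with IgG, and 13.7, 16.6, 17.9 and 19.1 with anti-ITGAV. The groups overlapped (log2 change 0.32, 95% interval 0.09 to 0.55, adjusted p = 0.0655). DESeq2 called it. Shmt2 (0.17), Wars (0.14), Aars (0.13) and Phgdh (-0.17) did not pass, and the interval of Phgdh ran from -0.54 to 0.20. The Wars record overlaps Wdr25 on the other strand, with 2410 counts beside 43193.

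**Figure D3:**
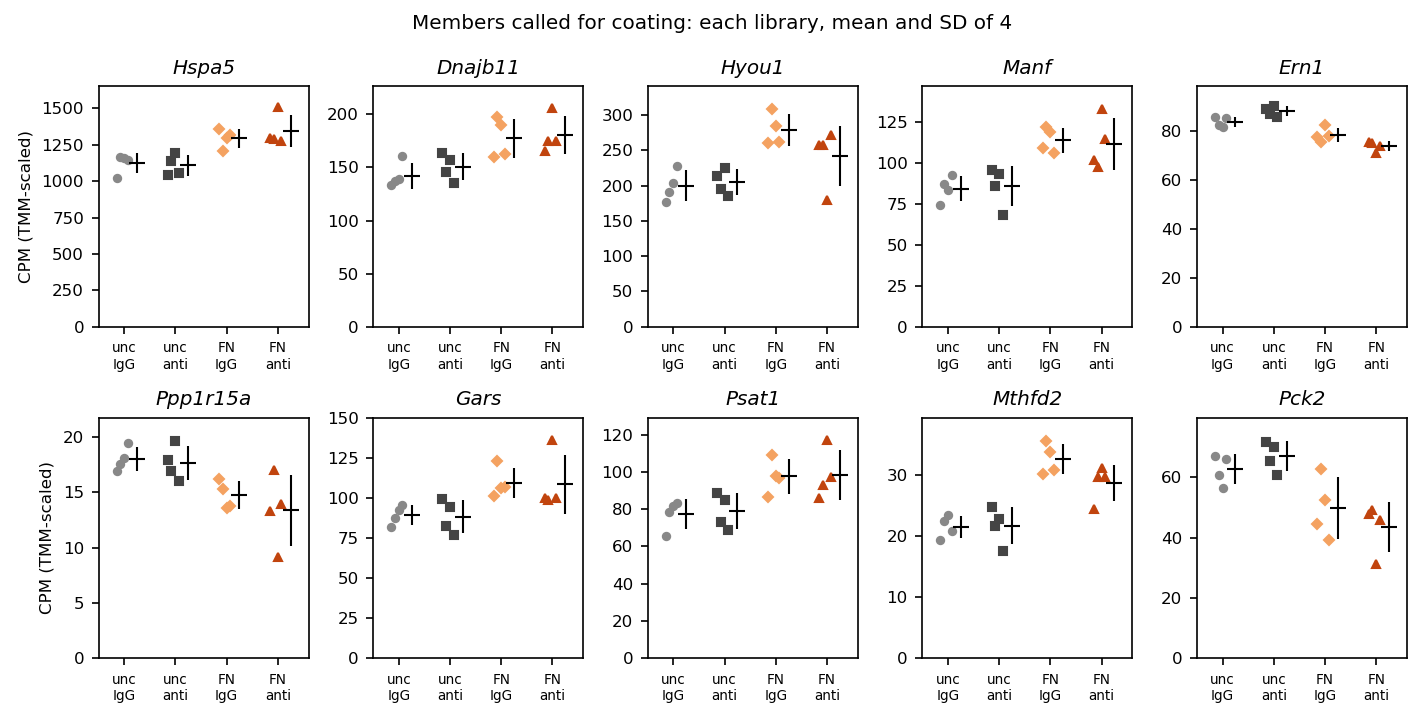
CPM (TMM-scaled) in each library of the 10 genes called for coating over both antibodies, with the mean and SD of the 4 libraries beside each group (unc, uncoated; FN, fibronectin; anti, anti-ITGAV). Every fibronectin library is above every uncoated one for Hspa5 and Manf, and Ern1, Ppp1r15a and Pck2 lie lower on fibronectin. The genes shown are those called in this same comparison, and the share of all genes tested without overlap was not counted.

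Without the library that stood apart the remaining called genes had log2 changes of 0.26 for Dnajb11 (adjusted p = 0.00753), 0.36 for Manf (0.00192), 0.28 for Psat1 (0.0112), 0.48 for Mthfd2 (0.000287) and -0.16 for Ern1 (0.00792) by edgeR, so all 10 kept their calls. Atf4, Creld2 and Shmt2 (0.26, adjusted p = 0.0217) joined them, which made 13 of 35 beside 15.7% of all genes tested.

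Set side by side over the mean of both antibodies, the arms compare as follows. In the chaperone arm 4 of 16 rose and 0 fell, 14 of 16 lay above 0, and the median log2 change was 0.16 (range -0.14 to 0.41). In the amino acid arm 3 of 9 tested rose and 1 fell, 7 lay above 0, and the median was 0.17 (range -0.48 to 0.50). The effectors had 0 higher and 1 lower of 5 with a median of -0.20, and the sensors and factors 0 higher and 1 lower of 5 with a median of -0.05. Leaving out the library that stood apart, these medians were 0.13 for the chaperones, 0.23 for the amino acid arm, -0.12 for the effectors and -0.07 for the sensors and factors. The mean log2 CPM of the 16 chaperones was 7.83 to 7.92 in the 8 uncoated libraries and 7.95 to 8.12 in the 8 coated ones, with no overlap. That of the 9 amino acid genes was 5.26 to 5.64 and 5.36 to 5.85, which overlapped. The effector mean was 2.66 to 2.93 on uncoated and 2.02 to 2.90 on coated plates. Within a group the SD of the chaperone mean was 0.024 to 0.069 and that of the amino acid mean 0.094 to 0.184, so overlap is not a like measure for the arms. These means are descriptions, and the difference between the arms was not tested.

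Under IgG alone 3 genes were called, all higher (8.57% of those tested, background 3.79%, of which 2.37% higher and 1.42% lower). They were Mthfd2 (log2 change 0.60 ± 0.12, adjusted p = 0.00639), Hyou1 (0.48 ± 0.12, 0.0342) and Manf (0.44 ± 0.12, 0.0487), all by edgeR and in groups that did not overlap. Mthfd2 kept its call under all 28 other settings. The Manf call was lost in 14 of the 16 fits without 1 library, keeping it only without fibronectin anti-ITGAV 3 or uncoated anti-ITGAV 4, and the Hyou1 call in 9, with adjusted p of up to 0.19 and 0.146. Atf4 was just outside (0.27, adjusted p = 0.0541), with all 4 coated libraries above all 4 uncoated ones. The chaperone arm had 2 higher of 16 with a median of 0.15, and the amino acid arm 1 higher of 9 with a median of 0.30, against 0.002 for all genes. Removing the library that stood apart, which is not in this comparison but sets the common spread, raised the count from 3 to 8: Atf4, Creld2, Dnajb11, Gars and Psat1 joined. The share called over all genes tested rose as well, from 3.79% to 8.4%.

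Under anti-ITGAV 3 genes were called, 1 higher and 2 lower (8.57% of those tested, background 5.66%, of which 2.84% higher and 2.83% lower). Mthfd2 rose by 0.40 ± 0.12 (adjusted p = 0.0471), and Pck2 (-0.62 ± 0.15, 0.0186) and Ern1 (-0.25 ± 0.07, 0.0366) fell by edgeR. Groups did not overlap for Pck2 and Ern1, and they did for Mthfd2. The chaperone median was 0.23, with 0 of 16 called and 4 at an unadjusted p under 0.05 by edgeR. Hspa5 (0.28, adjusted p = 0.054) and Manf (0.38, 0.0685) did not pass. Coated and uncoated libraries did not overlap for either, and how many of all genes tested are like that was not counted. The amino acid median was 0.04, with 1 higher and 1 lower of 9. Without the library that stood apart the order of the medians turned, with 0.14 for the chaperones and 0.17 for the amino acid arm. The calls were then Ern1, Hyou1 and Pck2, beside 6.17% of all genes tested, while the adjusted p of Mthfd2 was 0.0704. The calls of Mthfd2, Ern1 and Pck2 were lost in 13, 10 and 2 of the 16 fits without 1 library, with adjusted p of up to 0.116, 0.115 and 0.0586. For Pck2 those were uncoated anti-ITGAV libraries 1 (adjusted p = 0.0551) and 3 (0.0586).

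Whether the coating change differed between the antibodies was tested by the interaction, and 0 of 35 genes were called by edgeR, DESeq2 or limma, with 0 at an unadjusted p under 0.05 by edgeR. The background was 0%, 0 of 15469 genes, with 614 at an unadjusted p under 0.05. The 3 smallest p-values were of Atf4 (-0.21), Wars (-0.34) and Hsp90b1 (0.53), each with an adjusted p of 0.646 by edgeR. The interaction SE was 0.11 for Atf4 and 0.30 for Hsp90b1.

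Neutralizing αV gave no call among these genes on either coating. On uncoated plates 0 of 35 were called (background 0.0129%, 2 genes), with 2 at an unadjusted p under 0.05. The smallest p-values were of Atf4 (log2 change 0.17), Edem1 (0.15) and Hsp90b1 (-0.38), each with an adjusted p of 0.988 by edgeR. On fibronectin 0 of 35 were called (background 0.0129%, 2 genes), with 1 at an unadjusted p under 0.05. Nupr1 (-0.32), Creld2 (-0.26) and Shmt2 (-0.31) had the smallest p-values there, each with an adjusted p of 0.721 by edgeR. Over both coatings 0 of 35 were called (background 0.0711%, 11 genes), with 1 at an unadjusted p under 0.05. Edem1 (0.13), Shmt2 (-0.18) and Nupr1 (-0.16) led, each with an adjusted p of 1. DESeq2 and limma called 0 of these genes in each of the 3 comparisons. A p that misses the threshold does not show that levels were the same. Over both coatings the 35 log2 changes lay between -0.27 and 0.13, with a median of -0.03.

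The antibody changes on fibronectin were ordered by base composition, among these genes and over all genes. Spearman's rho between log2 change and the GC content of the transcripts was -0.815 over the 35 genes for anti-ITGAV against IgG on fibronectin, 0.211 on uncoated plates, and -0.678 for the coating under anti-ITGAV against -0.029 under IgG. Over the 15457 tested genes with a GC content the same values were -0.553, 0.391, -0.481 and 0.183. The first was -0.396 over the 35 genes and -0.212 over all without the library that stood apart. These are descriptions over genes that share the same libraries. Dnajb9 (45.1% GC) was at 0.34 and Hsp90b1 (42.7%) at 0.15, while Shmt2 (58.1%) was at -0.31 and Sesn2 (58.7%) at -0.27. With a per-library GC offset, a setting chosen after the data were seen, these became 0.17, -0.03, -0.11 and -0.04, so Hsp90b1 changed sign. Without the library that stood apart they were 0.02, 0.01, -0.14 and -0.10. The effectors are among the GC-rich genes here: Trib3, Sesn2, Chac1, Ppp1r15a and Nupr1 had 54% to 59.9% GC, and the chaperones 42.7% to 56.7%. With the GC offset the coating calls over both antibodies were 18 of 35, beside 3297 of 15469 genes: Asns, Atf4, Calr, Creld2, Pdia4, Sesn2, Shmt2 and Xbp1 were added to the 10. Sesn2 was lower (-0.18, adjusted p = 0.0103) and the other 7 of the 8 were higher.

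**Figure D4:**
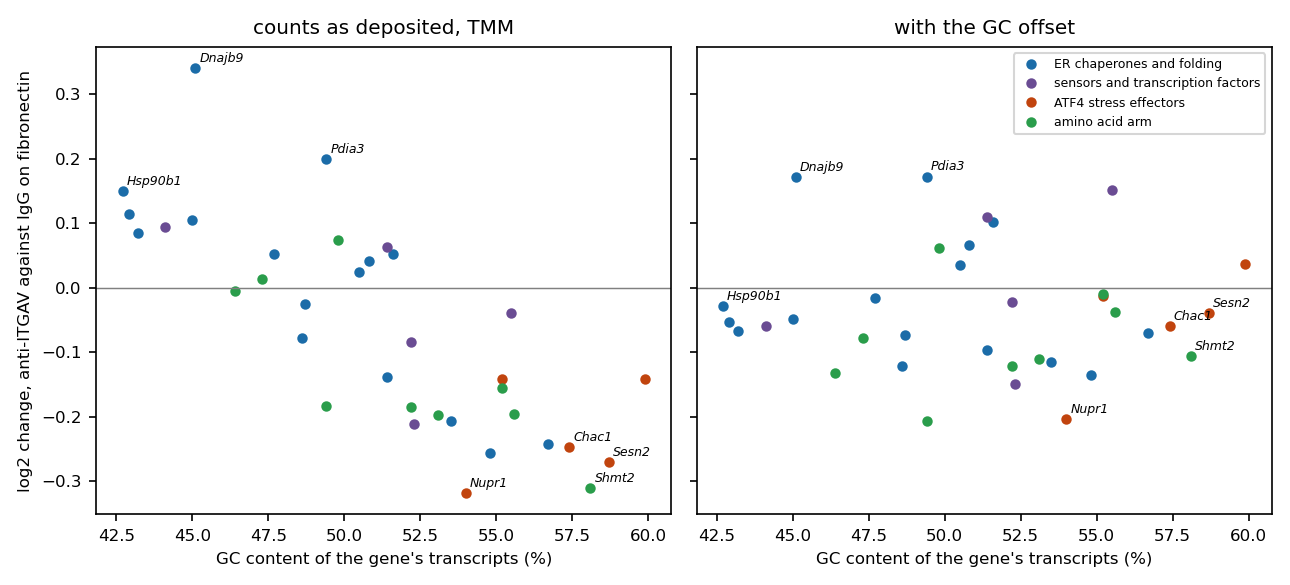
Log2 change for anti-ITGAV against IgG on fibronectin (vertical axis) by GC content of the transcripts in % (horizontal axis), for the 35 tested genes coloured by arm, from the counts as deposited (left) and with a per-library GC offset (right). On the left the values lie between 0.34 for Dnajb9 and -0.32 for Nupr1, and on the right they lie between 0.17 and -0.21.

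Neighbouring genes of the amino acid response changed as well. Of 8 amino acid transporters under ATF4, 4 rose on fibronectin over both antibodies and 0 fell (median log2 change 0.34). Over all genes tested 6.58% were higher and 5.26% lower, and the counts of the lists that follow are to be read against these shares. Where the library that stood apart is left out, the share called either way is 15.7%, against 11.8% with it. The lists were chosen with earlier results of these data known. Slc7a1, which imports arginine and lysine, had 26.2, 27.3, 29.2 and 37.1 CPM on uncoated plates with IgG, 25, 25.8, 31.6 and 33.5 with anti-ITGAV, 50.6, 54.1, 54.2 and 58 on fibronectin with IgG, and 48.5, 53, 56.1 and 57.6 with anti-ITGAV. All coated libraries lay above all uncoated ones. The log2 change of 0.87 ± 0.09 (1.83-fold, edgeR adjusted p = 4.19e-06) was larger than that of any of the 35 genes tested among the 36. The neutral amino acid transporters Slc38a2 (0.45 ± 0.06, adjusted p = 8.73e-05), Slc7a5 (0.41 ± 0.11, 0.0196) and Slc1a5 (0.21 ± 0.07, 0.045) rose too, by edgeR.

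Of 17 further cytosolic tRNA synthetases 4 rose and 0 fell (median 0.17; 7 and 1 without the library that stood apart): Tars (0.33), Iars (0.31), Rars (0.34) and Farsb (0.24), which charge threonine, isoleucine, arginine and phenylalanine transfer RNA. Of 10 further enzymes of amino acid and one-carbon metabolism 2 rose and 0 fell (median 0.18), the folate enzymes Mthfd1l (0.40) and Mthfd1 (0.33). Xpot, which exports transfer RNA from the nucleus, rose by 0.35 (adjusted p = 0.000202), and Ddit4, which inhibits mTORC1, fell by 0.60 on the log2 scale (adjusted p = 0.0408), both by edgeR and among 7 further ATF4 targets. Of 14 eIF2α kinases, sensors and partner factors 0 rose and 2 fell, the bZIP factors Atf5 (-0.34) and Cebpg (-0.20). Of 15 further ER folding and redox genes 0 were called with 4 at an unadjusted p under 0.05, and of 13 genes of ER-associated degradation 0 with 4, while 24% of all genes were under that p. Each of these lists had 1 higher and 1 lower without the library that stood apart, Fkbp11 and Serp1 in the former and Derl2 and Erlec1 in the latter. Of 12 genes of the translocon and signal peptide processing 1 rose, Srprb (0.24), a subunit of the signal recognition particle receptor, which at 8.33% is not above the background.

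**Figure D5:**
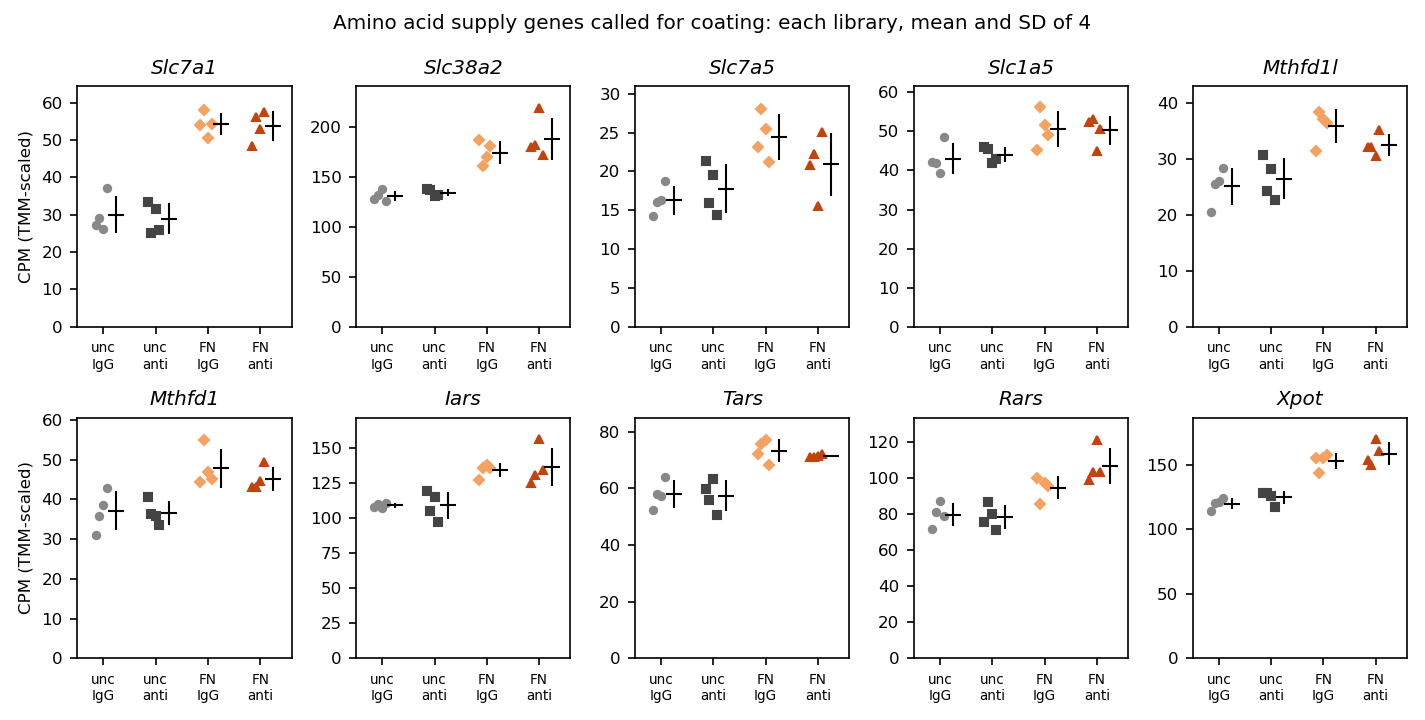
CPM (TMM-scaled) in each library of 10 amino acid supply genes outside the 36 that were called for coating over both antibodies, with the mean and SD of 4 libraries beside each group. All fibronectin libraries lie above all uncoated ones for Slc7a1, Slc38a2, Mthfd1, Iars, Tars and Xpot, and coated and uncoated libraries overlap for Slc7a5, Slc1a5, Mthfd1l and Rars. The genes were picked from those called in this same comparison, which favours separated groups. The share of all genes tested without overlap was not counted.

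Markers of other cells moved with the coating. Plasma cells are rich in chaperone mRNA, and the sum of their 7 markers was 82.8 to 104 CPM in uncoated and 50.9 to 65.4 in coated libraries, most of it Ighm. Their defining genes Jchain and Mzb1 had 16 and 5 counts over all 16 libraries. Sums over 7 fibroblast markers (10.7 to 15.2 and 5.16 to 8.97 CPM, Lum at 0), 7 mast cell and basophil markers (20.6 to 35 and 10.1 to 19.3) and 6 B cell markers (3.81 to 6.47 and 2.5 to 4.4) were lower on fibronectin as well. The sum of 10 neutrophil markers was 351 to 493 CPM in uncoated and 239 to 444 in coated libraries, which overlapped. Still, each of the 10 lay below 0 and 6 of them fell (median log2 change -0.34), 8 without the library that stood apart. Over all genes tested 5.26% were called lower, and without that library 15.7% were called either way. Called lower were also 2 of 4 tested plasma cell markers, 3 of 4 of fibroblasts, 3 of 7 of mast cells and basophils and 2 of 5 of B cells, with 0 higher. The plasma cell marker Sdc1 lay above 0 (log2 change 0.29, not called). It had 8.09 and 10.9 CPM on uncoated plates with IgG and anti-ITGAV, and 11.7 and 11.3 on fibronectin. The 10 macrophage markers had 0 higher and 2 lower, with a median of 0.02. For anti-ITGAV over both coatings 4 of the 10 neutrophil markers and 1 of the 7 mast cell and basophil markers were called lower too. In that comparison 0.0711% of all genes tested (11) were called either way. The part of these cells in the changes above was not tested.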

How the data were processed

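The data were polyA, paired-end RNA libraries of cultured macrophages, 16 in 4 groups of 4. The authors deposited whole-number counts per gene and library, and FPKM for the same genes, which were the counts over gene length and over a per-library constant of 0.989 to 1.04 times its total. Per the submitters' processing notes, HISAT2, StringTie and featureCounts were among the tools, with mm10 and GRCm38.p6 as build names. For tool versions, options and the use of strand in counting, the entry is: not given in the sources used here. Gene coordinates are those of the deposited tables.

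Counts were analysed with edgeR 4.0.16 in R 4.3.3: filterByExpr (minimum count 10), TMM factors, 1 mean per group over 16 libraries, robust quasi-likelihood tests, and Benjamini-Hochberg adjustment over 15469 genes at 0.05. CPM use TMM-scaled totals, and limits for a count of 0 use 3 counts over the library's total. Alternatives were DESeq2 1.42.0, limma 3.58.1 on log2(FPKM + 1) and log2(FPKM + 0.1), other scaling and filters, a replicate block, and leaving out each library. A GC offset, a smooth trend of log2 CPM on transcript GC content, was added after the data were seen, alone and without 1 library. The scripts were tested on simulated counts. Pairs of libraries within a group differed beyond sampling noise (chi-square over its degrees of freedom 5.4 to 207). Promoter windows are from RefSeq.

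The genes and lists were chosen with earlier results of these data known. All 36 genes were to be named with a level, every called gene with its change, and where none was called the 3 with the smallest p; library values were to be given for called genes, Hspa5, Xbp1, Atf4, Ddit3, Asns and the highest and lowest gene; and up to 4 called genes per other list.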

Additional observations from a re-analysis of the deposited data

Results flagged for a closer look

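Single libraries lay far from the other 3 of their group in 7 of 80 groups tested (16 genes and 4 arm means), by Dixon's test at the 95% level for 4 samples, which chance passes in about 1 of 20 groups. Fibronectin with anti-ITGAV library 3 gave 4 of the 7 cases. It had 1506 CPM of Hspa5 against 1276 to 1299 in the other 3, 218 CPM of Xbp1 against 167 to 170.4, 136 CPM of Gars against 98.4 to 99.9, and 179 CPM of Hyou1 against 258 to 272. It is the library with 3.67% of its counts in mitochondrial genes and the steepest fall of counts with GC content. Their part in these 4 values was not tested. Of the 35 tested genes it was the highest of its group for 17 and the lowest for 15.

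Uncoated IgG library 1 had 1021 CPM of Hspa5 against 1143 to 1164 in the rest of its group. The other 2 cases are of Cth and say nothing of its spread, since beside 3 libraries at 0 any count passes: it had 0.335 CPM in fibronectin IgG library 4 and 0.131 CPM in uncoated IgG library 2, which are 11 and 5 counts.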

How the results depend on the processing

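Over the mean of both antibodies Hspa5, Dnajb11, Manf, Hyou1, Psat1, Mthfd2 and Pck2 kept their direction and call under all 27 alternatives, and Ern1, Gars and Ppp1r15a lost theirs in 4, 7 and 9. The count of called genes there was 10, with 18 under the GC offset and 21 when fibronectin anti-ITGAV library 3 was also left out. Over all genes tested 11.8%, 21.3% and 23.4% were called in these fits. Under IgG the count was 3, with 5 by DESeq2 and 11 and 15 under those GC settings. It was 1 by limma on log2(FPKM + 1) without a filter, and 1 to 8 without 1 library. The shares of all genes tested were 3.79% in the main fit and 10.4% and 14.5% under the GC settings. Under anti-ITGAV the count was 3, with 5 by DESeq2 and 9 and 8 under the GC settings. It was 1 by unfiltered limma, 1 with no low-count filter, 0 with the compared groups alone, and 0 to 4 without 1 library. Here the shares were 5.66% in the main fit and 12.1% and 12.2% under the GC settings. For the antibody comparisons and the interaction the count was 0 in every fit. Shares of all genes tested are not given here for DESeq2, limma, the filters, the compared groups alone or the replicate block below. Nor are they given for fits without 1 library, other than fibronectin anti-ITGAV 3. The counts of called genes under those settings therefore stand without a background. Samples with the same replicate number did not deviate together (24 pairs, r -0.301 to 0.277, 4 over 0.1, and 2 of 16 libraries correlating best with their own number), so the replicate block is an alternative only: with it 1 gene was called under IgG, 1 under anti-ITGAV and 9 over both. The chaperone median under anti-ITGAV, 0.23, was 0.18 with the GC offset, 0.13 with that library also left out and 0.14 to 0.24 without 1 library. The amino acid median there moved more, from 0.04 to 0.17 with the GC offset and 0.12 with that library also left out. So the distance between the arms under anti-ITGAV depended on the setting. The next values are again of the chaperones. Over both antibodies the chaperone median was 0.11 with the GC offset and 0.11 to 0.19 without 1 library, and under IgG 0.11 to 0.20. The amino acid medians of these comparisons are not given here with the GC offset or across the fits without 1 library. How far apart the arms lay under those settings is therefore not described. The Atf4 interaction was -0.21 and became 0.042 with the GC offset (adjusted p = 0.971). Depth limits Chac1 and Cth, with 211 and 42 counts in all. Other causes were not tested.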
